A study of Mus musculus with 10 samples.

Results

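The insulin-like growth factor (IGF) axis and 2 imprinted inhibitors of growth were followed in the first pharyngeal arch of the mouse embryo. The group holds 10 genes, chosen by name: the ligands Igf1 and Igf2, the receptors Igf1r and Igf2r, the binding protein genes Igfbp2, Igfbp3, Igfbp4 and Igfbp5, the cyclin-dependent kinase inhibitor Cdkn1c and the receptor adaptor Grb10. All 10 were found among the 22114 protein-coding genes of the deposited table, and all 10 passed the filter on low counts that left 14561 genes to test.

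The first pharyngeal arch gives rise to the upper and lower jaw, and at E10.5 (mid-gestation) it is a core of neural crest mesenchyme, with some mesoderm, vessels and nerve, inside an epithelial cover. RNA was sequenced from whole arches of 5 Grhl2+/+ and 5 Grhl2-/- embryos at E10.5, all male and on a C57BL/6 background. Grhl2 encodes Grainyhead-like 2, a transcription factor of surface epithelia, and the null embryos carry the null allele in every tissue, so a difference between genotypes is not tied to the epithelium by the design. Each arch is named here by the embryo and label numbers of its title, and the sources used here do not say what the label number stands for.

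IGF1 and IGF2 are secreted proteins that drive fetal growth through the type 1 IGF receptor, a tyrosine kinase encoded by Igf1r. The type 2 receptor, encoded by Igf2r, is a mannose 6-phosphate receptor that carries IGF2 to the lysosome and so removes it. IGF-binding proteins hold both ligands outside the cell and can limit or prolong their action, and proteases such as PAPP-A release the ligands by cutting binding proteins. Igf2 is expressed mainly from the paternal allele, and Igf2r and Cdkn1c mainly from the maternal one, while Grb10 is maternal in most tissues and paternal in neurons. The counts are not split by allele, so parental origin was not measured.

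Total counts per arch ran from 22188454 to 28801378 reads assigned to genes, and the 10 genes had between 1023 reads (Igf1) and 76246 reads (Grb10) in an arch. Levels are given as counts per 1000000 reads (CPM), with library sizes scaled by TMM (trimmed mean of M-values) normalisation, in the arch order stated with each gene. Differences are log2 fold changes of Grhl2-/- over Grhl2+/+ from limma-voom, and a gene was called at a Benjamini-Hochberg false discovery rate (FDR) below 0.01 over all genes tested. Grhl2 itself was at 35.6 ± 3.29 CPM in wild-type arches and 4.53 ± 1.45 CPM in Grhl2-/- arches (SD, n = 5 each), as the labels require. The wild-type arches 1-566 and 1-568 stood apart in holding 50.1 and 42.3 summed CPM of 12 sensory neuron genes, where the other wild-type arches held 631 to 1061 and those of Grhl2-/- embryos 355 to 1373, so results are also given without them. Dissected arches are a mixture, and in such bulk samples fewer cells of a type and less RNA per cell cannot be told apart.

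In Grhl2-/- arches 3 of the 10 genes were higher, 0 were lower and 7 were not called. The 3 were Igfbp3 (1.92-fold), Igfbp5 (1.44-fold) and Igf2r (1.25-fold), the last 2 with an FDR close to the threshold. The binding protein genes Igfbp2 and Igfbp4, both ligands and the signalling receptor were not called. edgeR and DESeq2 each also called 3 higher and 0 lower, and at an unadjusted p below 0.05 limma gave 5 higher and 1 lower. Counts at an unadjusted p are read against 14.2% of all genes higher and 14.3% lower at that level, those of edgeR against 0.975% and 1.11%, and those of DESeq2 against 3.57% and 3.80%. Over all genes tested, 0.879% were called higher and 1.09% lower. At the looser FDR of 0.05 the count for the 10 genes stayed at 3 higher and 0 lower, where 3.84% of all genes were higher and 3.87% lower. The groups did not overlap for Igfbp3 and Igfbp5, as for 8.88% of all genes tested. The median log2 fold change of the 10 genes was 0.14, and that of all genes tested was 0.01. Of the 10, 9 had a value above 0 and 1, Igf1, below it. Without both wild-type arches low in sensory neuron transcripts, 1 of the 10 genes, Igfbp3, was called. Over all genes that fit called 19 higher and 90 lower, against 128 and 158 with all arches. The count of the 10 genes called higher was also 1 with no filter on low counts, and 1 to 2 with each arch left out. Over all genes, 112 were called higher with no filter and 42 to 143 with each arch left out.

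**Figure D1:**
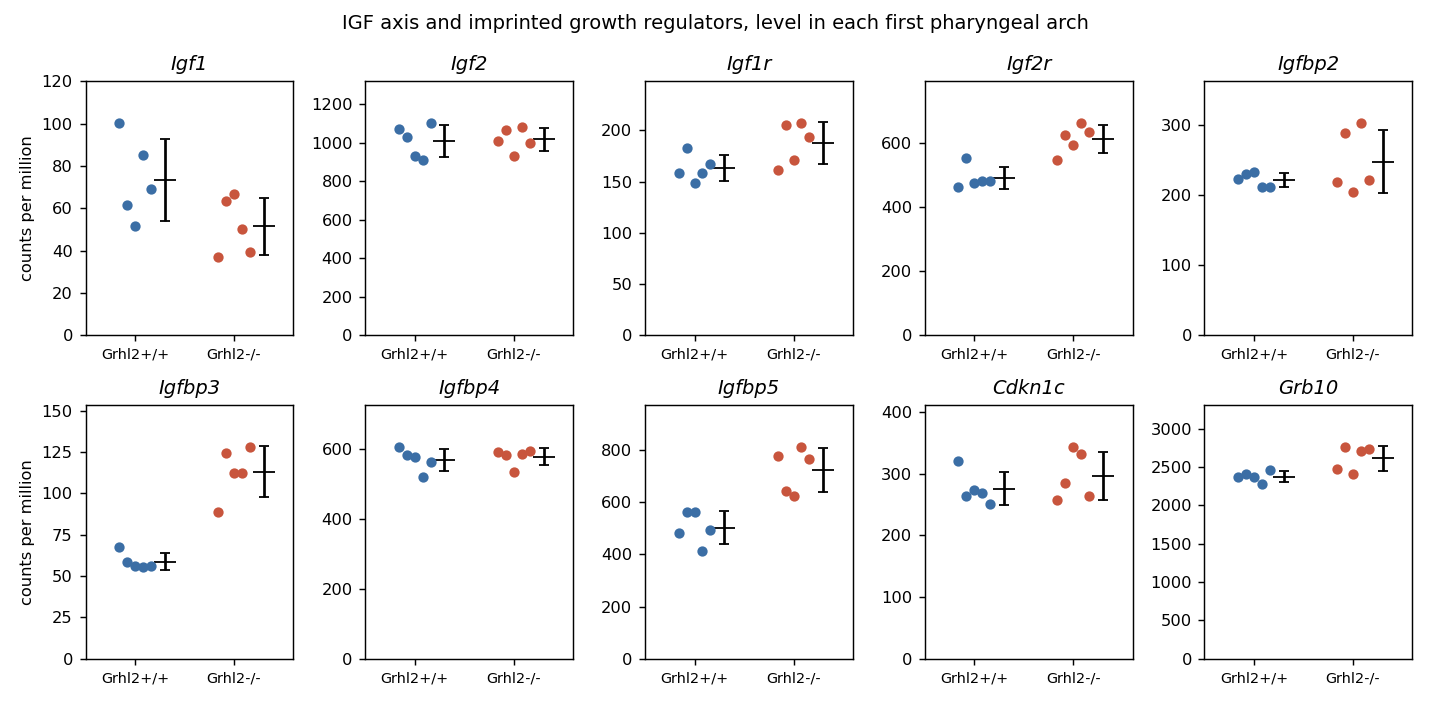
Level of each of the 10 genes in CPM (vertical axes, each starting at 0) in 5 Grhl2+/+ arches (blue) and 5 Grhl2-/- arches (red). A point is an arch, and the bar beside the points is the mean with its SD. The groups are apart for Igfbp3 and Igfbp5, nearly so for Igf2r and Grb10, and overlap for the other genes.

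Among the binding proteins, Igfbp3 showed the largest difference. Igfbp3 encodes the main carrier of IGFs in the blood, which also acts in tissues. It lies at chr11:7206086-7213923 on the minus strand (GRCm38). In the wild-type arches 1-566, 1-568, 3-588, 5-566 and 8-568 it was at 67.7, 58.6, 55.9, 55.6 and 55.9 CPM. In the Grhl2-/- arches 1-588, 1-628, 2-566, 2-568 and 3-604 it was at 88.9, 124.5, 112.7, 112.2 and 128.1 CPM. Every Grhl2-/- arch was above every wild-type arch, and the lowest of them, 1-588, was still above the highest wild-type arch, 1-566. The means were 58.8 ± 5.16 and 113.2 ± 15.3 CPM (SD over 5 arches each), and the log2 fold change was 0.94 (SE 0.0961, 95% confidence interval 0.73 to 1.15, limma FDR 0.000202). The exact two-sided permutation test gave p = 0.00794, the smallest that 5 arches against 5 can give. Igfbp3 ranked 45 of the 14561 genes by FDR. It was called when any arch was left out, with an FDR of 0.00115 or less, and without both wild-type arches low in sensory neuron transcripts, with a log2 fold change of 0.99 and an FDR of 0.00148.

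The sequence before the Igfbp3 start is shown because the gene carries the largest difference of the group. RefSeq (GRCm38.p6) promoters were found for 9 of the 10 genes (not Cdkn1c), 14 in all, and the 250 bases before each start were searched on both strands. The search used the Grainyhead-like motif AACCGGTT and its looser form AACNGGTT, which contains it, the E-box CAGGTG to which ZEB and SNAIL factors bind, the GC box GGGCGG and the TATA box TATAAA. Capitals mark a match to any of them, and the sequence is chr11:7213924-7214173 read on the minus strand, 5′ to 3′.
Igfbp3 promoter: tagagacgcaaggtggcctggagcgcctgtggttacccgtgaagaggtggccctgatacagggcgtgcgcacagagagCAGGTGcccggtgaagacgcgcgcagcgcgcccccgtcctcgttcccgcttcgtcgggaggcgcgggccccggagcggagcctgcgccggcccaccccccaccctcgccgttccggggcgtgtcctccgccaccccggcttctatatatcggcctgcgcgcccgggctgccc
The Igfbp3 window held 1 CAGGTG, starting 172 bases before the start site, and no match to the other motifs. CAGGTG was present in 17.2% of all 32817 promoters of this length. The window is 73.2% G and C and holds 32 CpG dinucleotides, where the medians over all promoters were 52.4% and 6.

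Igfbp5 encodes the binding protein that is most conserved in sequence and abundant in developing bone and muscle. It lies at chr1:72857932-72874884 on the minus strand. The wild-type arches, in the same order, were at 481.0, 562.5, 560.7, 411.2 and 492.6 CPM. The Grhl2-/- arches were at 776.4, 643.5, 623.6, 810.6 and 766.7 CPM. The lowest Grhl2-/- arch, 2-566, was above the highest wild-type arch, 1-568. The means were 501.6 ± 63.0 and 724.2 ± 84.6 CPM (SD, n = 5 each), with a log2 fold change of 0.53 (SE 0.0978, 95% confidence interval 0.32 to 0.74, limma FDR 0.00947). The exact permutation test again gave its smallest p, 0.00794. The FDR is close to the threshold, and the call was kept in 1 of 10 fits that left out an arch (FDR 0.00663 to 0.0315), while the log2 fold change stayed between 0.46 and 0.58. Without both wild-type arches low in sensory neuron transcripts it was 0.56, with an FDR of 0.0493.

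The promoter of Igfbp5, chr1:72874866-72875115 on the minus strand, is shown for comparison with that of Igfbp3.
Igfbp5 promoter: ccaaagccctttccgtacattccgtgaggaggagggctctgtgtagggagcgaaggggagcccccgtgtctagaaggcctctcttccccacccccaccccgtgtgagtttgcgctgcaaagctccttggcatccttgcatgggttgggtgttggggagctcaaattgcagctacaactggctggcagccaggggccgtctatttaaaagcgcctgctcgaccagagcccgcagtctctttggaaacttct
It held no match to any of the motifs searched, and so has no capitals. It is 58.8% G and C with 10 CpG dinucleotides.

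Igfbp2 and Igfbp4 were not called. Igfbp2 encodes a binding protein of embryonic epithelia and fetal serum. It lies at chr1:72824503-72852474 on the plus strand, tail to tail with Igfbp5 and 5457 bases from it. It was at 222.0, 229.6, 232.8, 210.8 and 211.0 CPM in wild-type arches and at 218.8, 288.5, 204.0, 301.7 and 221.0 CPM in Grhl2-/- arches. The wild-type arches lay within a narrow band, while 2 Grhl2-/- arches, 1-628 and 2-568, were above it and 1 was below it. The log2 fold change was 0.14 (95% confidence interval -0.09 to 0.36, limma FDR 0.388). Igfbp4, at chr11:99041244-99054392 on the plus strand, encodes a binding protein that PAPP-A cuts. It was at 604.8, 581.3, 576.4, 518.6 and 563.1 CPM in wild-type arches and at 591.9, 582.2, 534.0, 586.1 and 592.3 CPM in Grhl2-/- arches. These values overlap throughout, and the log2 fold change was 0.02 (95% confidence interval -0.08 to 0.12, limma FDR 0.782).

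The balance between binding proteins was read within each arch. There were 1.03 to 1.26 reads of Igfbp4 per read of Igfbp5 in wild-type arches and 0.723 to 0.905 in Grhl2-/- arches. By reads not scaled by exon length, Igfbp4 was the more counted of the pair in all wild-type arches and Igfbp5 in all Grhl2-/- arches. Per kilobase of exon, Igfbp4 was above Igfbp5 in all wild-type arches and in Grhl2-/- arches 1-588, 1-628, 2-566 and 3-604. In Grhl2-/- arch 2-568 Igfbp5 was above Igfbp4, at 135.0 against 132.7 CPM per kb. The summed level of the 4 binding protein genes was 1196 to 1432 CPM in wild-type arches and 1474 to 1811 CPM in Grhl2-/- arches. These comparisons are descriptions and were not tested, and all contain the difference in Igfbp5.

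**Figure D2:**
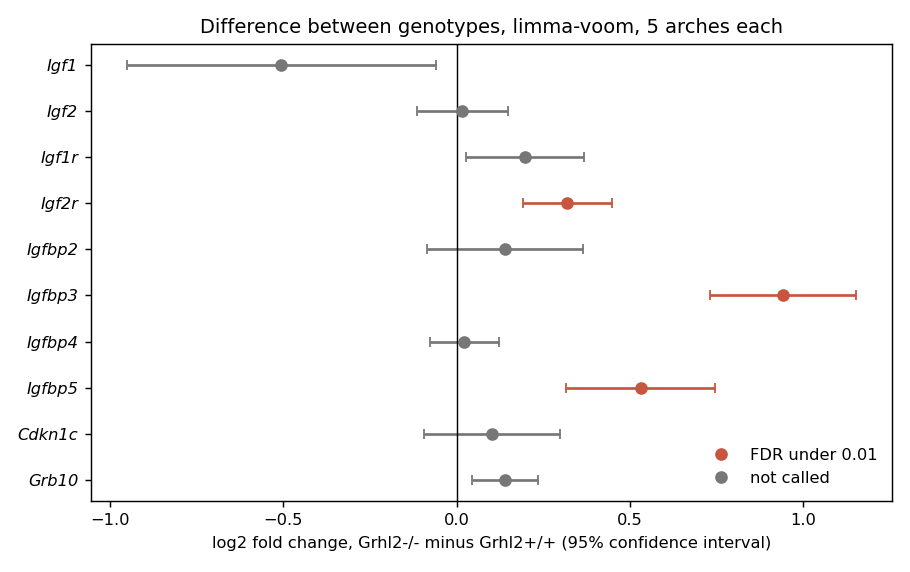
Log2 fold change of Grhl2-/- over Grhl2+/+ for each gene (horizontal axis), with its 95% confidence interval from limma-voom over 5 arches each. Red marks an FDR below 0.01. The intervals of Igfbp3 and Igfbp5 lie farthest above 0, and that of Igf1 is the widest and lies below 0.

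Of the receptors, Igf2r was called and Igf1r was not. Igf2r lies at chr17:12682406-12769664 on the minus strand. The wild-type arches, ordered as before, were at 462.6, 551.1, 476.0, 479.8 and 482.2 CPM. The Grhl2-/- arches were at 547.5, 624.2, 594.0, 660.6 and 634.3 CPM. The groups overlapped by 1 pair of arches, since wild-type arch 1-568 was above Grhl2-/- arch 1-588. The means were 490.4 ± 34.8 and 612.1 ± 43.3 CPM (SD over 5 arches each), and the log2 fold change was 0.32 (SE 0.0587, 95% confidence interval 0.19 to 0.45, limma FDR 0.00941). The exact two-sided permutation test gave p = 0.0159. The call was kept in 2 of 10 fits with an arch left out, those without the overlapping arches 1-568 or 1-588, and the FDR ranged from 0.00405 to 0.0293 over the 10. Without both wild-type arches low in sensory neuron transcripts, the log2 fold change was 0.34 and the FDR 0.0228. With the label number as a replicate block, the log2 fold change was 0.31 and the FDR 0.0226, so Igf2r was not called.

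The promoter of Igf2r, chr17:12769707-12769956 on the minus strand, is shown because this is the receptor gene that was called.
Igf2r promoter: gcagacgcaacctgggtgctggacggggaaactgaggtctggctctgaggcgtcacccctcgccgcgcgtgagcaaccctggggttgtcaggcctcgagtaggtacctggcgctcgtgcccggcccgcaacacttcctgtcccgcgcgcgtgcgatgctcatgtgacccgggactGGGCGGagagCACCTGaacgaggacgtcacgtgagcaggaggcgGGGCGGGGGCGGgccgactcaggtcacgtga
It held the E-box as its reverse complement CACCTG, 65 bases before the start, and GGGCGG at 75, 31 and 25 bases before it. GGGCGG was present in 32.7% of all promoters. Neither AACCGGTT (0.116% of promoters) nor AACNGGTT (1.78%) was found in any of the 14 windows searched, which belong to 9 of the genes, and TATAAA (12.4%) was found in that of Igfbp4 alone, 28 bases before the start. The absence of these letters from windows of 250 bases says nothing of binding elsewhere. Among the 14 windows, those of Igfbp3 and Igf2r held CAGGTG, which was present in 17.2% of all promoters, so this does not set the group apart.

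Igf1r, at chr7:67952827-68233668 on the plus strand, encodes the receptor through which both ligands signal. It was at 158.6, 182.5, 148.6, 158.2 and 167.3 CPM in wild-type arches and at 161.5, 204.9, 170.8, 206.9 and 193.9 CPM in Grhl2-/- arches. In all, 3 of the Grhl2-/- arches, 1-628, 2-568 and 3-604, were above every wild-type arch and the other two were within their range. The log2 fold change was 0.20 (95% confidence interval 0.03 to 0.37, limma FDR 0.125), with an exact permutation p of 0.0556.

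Neither ligand was called. Igf2, at chr7:142650766-142666816 on the minus strand, was at 1070, 1031, 932.6, 911.3 and 1100 CPM in wild-type arches and at 1010, 1067, 930.8, 1082 and 1001 CPM in Grhl2-/- arches. The groups covered nearly the same range, and the log2 fold change was 0.02 (SE 0.0599, limma FDR 0.890). Its 95% confidence interval ran from -0.12 to 0.15, so a change of the size seen in Igf2r lies outside it. In the GENCODE M21 annotation, 62.8% of the Igf2 exon length also belongs to Gm49394, a protein-coding gene on the same strand, and 1.71% to the antisense transcript Igf2os. The counts table has no row for either, and the sources used here do not state the annotation release or the strand setting of the counting, and the part of shared reads in the Igf2 level was not tested.

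Igf1, at chr10:87858265-87937042 on the plus strand, was the only gene of the group with a mean below that of the wild type. It was at 100.2, 61.4, 51.5, 85.0 and 69.0 CPM in wild-type arches and at 37.2, 63.4, 66.9, 50.1 and 39.5 CPM in Grhl2-/- arches. The spread was wide in both genotypes, with the highest 3 values in wild-type arches and the lowest 3 in Grhl2-/- arches. The log2 fold change was -0.51 (SE 0.203, 95% confidence interval -0.95 to -0.06, limma FDR 0.132), and the exact permutation test gave p = 0.0794. With any 1 arch left out, its log2 fold change stayed between -0.63 and -0.39 and the FDR between 0.0790 and 0.252.

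Ligand and clearance receptor were also read together within each arch. There were 1.87 to 2.31 reads of Igf2 per read of Igf2r in wild-type arches, with a median of 1.96, and 1.57 to 1.84 in Grhl2-/- arches, with a median of 1.64. The ranges do not overlap, although Igf2 was not called and Igf2r overlapped by 1 pair of arches. For Igf2 against Igf1 the ranges overlapped, at 10.7 to 18.1 and 13.9 to 27.2. These ratios are descriptions of reads, not of protein, and were not tested.

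The 2 imprinted inhibitors were not called. Cdkn1c, at chr7:143458339-143461050 on the minus strand, encodes p57KIP2, a cyclin-dependent kinase inhibitor that restrains fetal growth. It was at 320.5, 263.9, 273.4, 268.0 and 251.4 CPM in wild-type arches and at 257.9, 285.1, 342.8, 331.8 and 264.0 CPM in Grhl2-/- arches. The highest wild-type arch was above 3 of the Grhl2-/- arches, and the log2 fold change was 0.10 (95% confidence interval -0.09 to 0.30, limma FDR 0.474). The antisense gene Gm44732 covers 30.6% of the Cdkn1c exon length, and its reads would be part of the count if strand was not used, which the sources used here do not state.

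Grb10, at chr11:11930508-12038683 on the minus strand, encodes an adaptor that binds the insulin and IGF1 receptors and dampens their signal. It was the 9th most abundant of all genes by CPM in wild-type arches. It was at 2366, 2408, 2371, 2273 and 2455 CPM in wild-type arches and at 2468, 2759, 2413, 2712 and 2731 CPM in Grhl2-/- arches. In all, 4 of the Grhl2-/- arches were above every wild-type arch and 1, 2-566, was within their range. The log2 fold change was 0.14 (SE 0.0433, 95% confidence interval 0.04 to 0.23). The limma FDR of 0.0715 did not pass, and the exact permutation p was 0.0159.

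Levels between genes were compared per kilobase of exon, with lengths from GENCODE M21. In wild-type arches the order of mean CPM per kb was Grb10 (261.3), Igf2 (176.3), Cdkn1c (135.1), Igfbp4 (128.8), Igfbp2 (119.8), Igfbp5 (83.5), Igf2r (52.7), Igfbp3 (18.8), Igf1r (9.71) and Igf1 (7.41). The ranges over arches overlapped between Cdkn1c and Igfbp4, between Igfbp4 and Igfbp2 and between Igf1r and Igf1, so their order is not set by these arches, while the other neighbours did not overlap. Igf2 was far above Igf1 in every arch, and Igf1 and Igf1r were the lowest pair of the group. In Grhl2-/- arches Igfbp5 reached 120.6 CPM per kb, next to Igfbp4 at 130.7 and Igfbp2 at 133.6. Igfbp3 was at 36.2 there, still below Igf2r at 65.8.

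**Figure D3:**
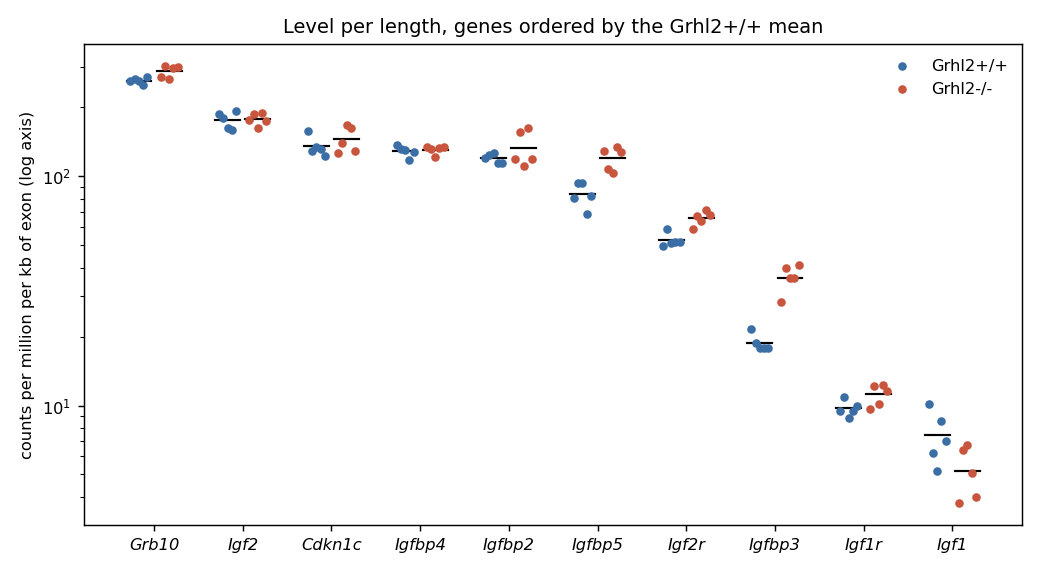
CPM per kilobase of exon (log axis) for each gene in every arch, with genes ordered by their wild-type mean. Blue points are Grhl2+/+ arches, red points Grhl2-/- arches, and a line marks the mean of 5. Grb10 and Igf2 are highest and Igf1r and Igf1 lowest in both genotypes.

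Marker genes of the cell types in an arch were compared, since the 10 genes can differ in level between cell types. Epithelial markers summed to 349 to 469 CPM in wild-type arches and 185 to 272 in Grhl2-/- arches. By limma 5 of 10 were called lower (1.09% of all genes), which were Cdh1, Epcam, Cldn4, Cldn6 and Esrp1. The other 5 were not called by limma, with log2 fold changes of -0.40 for Krt8, -0.24 for Trp63, -0.07 for Krt18, 0.02 for Krt19 and 0.28 for Grhl3. At an unadjusted p below 0.05, 6 of the 10 were lower, the called genes and Trp63 (14.3% of all genes). The paper reports binding of GRHL2 at Cdh1, Cldn4, Epcam and Esrp1, and the lower sum does not show that the arches held less epithelium. Mesenchymal markers summed to 1751 to 2155 and 1437 to 1666 CPM, with 1 of 12 called lower by limma, Msx1, 6 by DESeq2, and 8 lower at an unadjusted p below 0.05 (3.80% and 14.3% of all genes). Endothelial markers were at 380 to 433 and 418 to 502 CPM. None of the 8 was called by limma, 4 were higher at an unadjusted p below 0.05 (14.2% of all genes), and 2 were called higher by DESeq2 (3.57%). Ganglion glia markers were at 46.1 to 201 and 77.4 to 229 CPM, those of mesoderm and muscle at 49.6 to 64.0 and 43.6 to 90.2, of erythroid cells at 3673 to 6243 and 2892 to 3908, and of macrophages at 19.8 to 29.4 and 16.4 to 62.1. In these lists and among the 12 sensory neuron genes, limma, edgeR and DESeq2 called 0. At an unadjusted p below 0.05 limma gave 2 of 12 neuron genes higher (14.2% of all genes). It gave 1 of 7 mesoderm genes and 3 of 6 erythroid genes lower (14.3% of all genes). Every marker had more than 3 reads in some arch. The epithelial and mesenchymal sums were thus lower in every Grhl2-/- arch, and the endothelial sums mostly higher, where Igfbp3, Igfbp5 and Igf2r were higher, and their part in these results was not tested.

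Sensory neuron transcripts were also set beside the called genes. For Igfbp3 the wild-type arches with few such transcripts, 1-566 and 1-568, had the 2 highest wild-type values, so the difference was larger without them. The log2 of the summed level of sensory neuron markers was then used as a covariate. The log2 fold changes were 0.95 for Igfbp3 (limma FDR 0.000407), 0.61 for Igfbp5 (limma FDR 0.00464) and 0.34 for Igf2r (limma FDR 0.0137). Igf2r was thus no longer called.

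**Figure D4:**
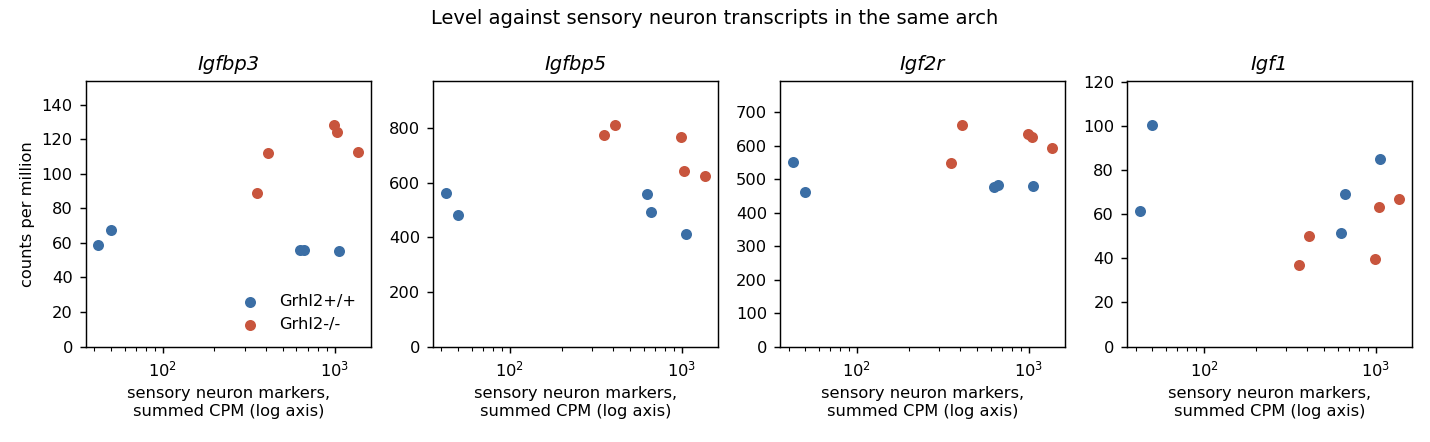
CPM of Igfbp3, Igfbp5, Igf2r and Igf1 (vertical axes from 0) against the summed CPM of 12 sensory neuron genes in the same arch (log axis). Blue points are Grhl2+/+ arches and red points Grhl2-/- arches. The 2 wild-type arches at 42.3 and 50.1 stand apart on the horizontal axis, where there is no Grhl2-/- arch to compare.

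The rest of the axis was read from 22 other genes, of which 18 were tested. By limma, Pappa was called higher, 0 were called lower and 17 were not called, where 0.879% of all genes were called higher and 1.09% lower. The median log2 fold change was 0.25. At an unadjusted p below 0.05 there were 6 higher and 1 lower (14.2% and 14.3% of all genes). edgeR called 1 higher and 0 lower (0.975% and 1.11% of all genes), and DESeq2 called 2 higher and 1 lower (3.57% and 3.80%). Pappa, at chr4:65124174-65357509 on the plus strand, encodes PAPP-A, the protease that cuts IGFBP4 and IGFBP5. It was at 7.27, 6.22, 6.34, 10.03 and 7.39 CPM in wild-type arches and at 12.7, 17.8, 17.03, 16.6 and 12.7 CPM in Grhl2-/- arches. The groups did not overlap, at 160 to 276 reads against 328 to 492, and the log2 fold change was 1.05 (SE 0.151, limma FDR 0.00221). The call held when any single arch was left out, with an FDR of up to 0.00921, but not without both wild-type arches low in sensory neuron transcripts, where the log2 fold change was 0.95 and the FDR 0.0310. The receptor adaptor gene Grb7 (-1.09, FDR 0.0272) and the stanniocalcin gene Stc1 (1.01, FDR 0.0420), whose product inhibits PAPP-A, came next by limma FDR and did not pass. The insulin genes Ins1 and Ins2 were listed at 0 reads in every arch. Insr, the insulin receptor gene, had a log2 fold change of 0.18 (limma FDR 0.155).

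All 38 genes listed for signalling below the receptor, from the Irs adaptors through PI3 kinase and mTOR to the RAS and ERK kinases, were tested and 0 were called by limma at FDR below 0.01. At FDR below 0.05, 2 were higher and 1 lower (3.84% and 3.87% of all genes), and the median log2 fold change of the 38 was 0.02. Among those of lowest FDR were Hras (-0.23, limma FDR 0.0256) and Shc1 (0.22, 0.0417). At an unadjusted p below 0.05 they were 5 and 4, close to the 14.2% and 14.3% of all genes. edgeR called 0, and DESeq2 called 2 higher and 2 lower (3.57% and 3.80% of all genes). The counts measure transcripts and not the phosphorylation by which this cascade is read.

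Of 37 other imprinted genes, 34 were tested and 0 were called, with a median log2 fold change of 0.05. Sgce (0.25, limma FDR 0.0274), Cd81 (0.17, 0.0324) and Nnat (-0.21, 0.0657) had the lowest FDR. At FDR below 0.05, 2 were higher and 0 lower (3.84% and 3.87% of all genes). At an unadjusted p below 0.05 they were 7 and 3, beside 14.2% and 14.3% of all genes. edgeR called 0, and DESeq2 called 2 higher and 0 lower (3.57% and 3.80% of all genes). Together with Igf2, Igf2r, Cdkn1c and Grb10, Igf2r was the imprinted gene called by limma at FDR below 0.01. Dlk1 and Rtl1, each listed in 2 rows, were at 0 reads in every row and arch, and the table holds 105 symbols listed more than once, of which 64 are at 0 everywhere, so these 0 values may not measure expression.

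Among 6 other Cip/Kip and INK4 inhibitor genes, relatives of Cdkn1c in function, 5 were tested. By limma 1, Cdkn1a, was called higher and 0 lower (0.879% and 1.09% of all genes). At an unadjusted p below 0.05 limma gave 3 higher and 0 lower (14.2% and 14.3% of all genes). edgeR and DESeq2 each called 1 higher and 0 lower, where edgeR called 0.975% and 1.11% of all genes and DESeq2 3.57% and 3.80%. Cdkn1a encodes p21, an inhibitor induced by p53, and lies at chr17:29090976-29100727 on the plus strand. It was at 5.90, 6.97, 8.15, 6.00 and 8.32 CPM in wild-type arches and at 10.1, 12.98, 11.1, 10.2 and 13.5 CPM in Grhl2-/- arches. The groups did not overlap, and the log2 fold change was 0.70 (SE 0.126, limma FDR 0.00872). The call was kept in 1 of 10 fits with an arch left out and was lost without both wild-type arches low in sensory neuron transcripts, where the log2 fold change was 0.61 and the FDR 0.0906. The Cdkn1a call was also lost with the label number as a replicate block (FDR 0.0515).

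**Figure D5:**
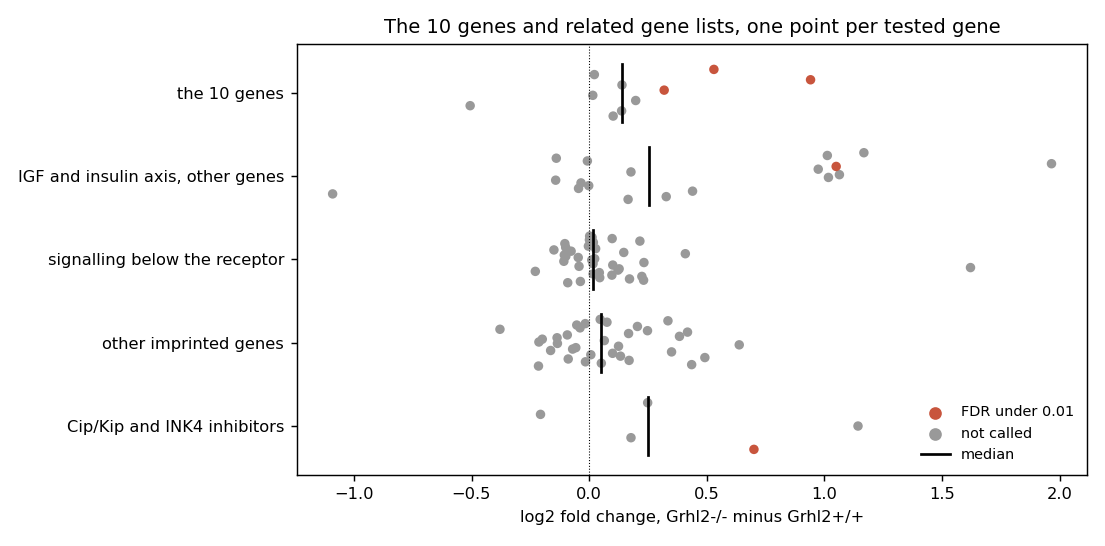
Log2 fold change of Grhl2-/- over Grhl2+/+ (horizontal axis) for every tested gene of the 10 and of the related lists, with 18 further IGF and insulin genes, 38 signalling genes, 34 imprinted genes and 5 inhibitor genes. Red points passed an FDR below 0.01, and a black line marks the median of each list. Called genes lie above 0, with 3 among the 10 genes, Pappa in the IGF and insulin list and Cdkn1a among the inhibitors.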

How the data were processed

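RNA from the first pharyngeal arches of 5 Grhl2+/+ and 5 Grhl2-/- male embryos at E10.5 was made into stranded total RNA libraries after removal of ribosomal RNA, and the authors sequenced 50 bp single-end reads. The authors used STAR for alignment to GRCm38 and featureCounts for counting, and the deposited values are raw counts of 22114 protein-coding genes, not normalised. The submitters' processing notes also name edgeR 3.18.1 and limma 3.32.7. The annotation release, the strand setting and the versions of STAR and featureCounts are not given in the sources used here, although the deposited table has the word Reverse in its name, which may refer to the strand setting. A second deposited table holds the authors' fold changes, average expression and adjusted p-values and repeats the counts, and it was not used. Each of the 10 count columns carries the title of its sample.

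A gene was tested if some arch (1 or more) had 10 or more counts for it, and 14561 genes were. The data were normalised by TMM (edgeR 4.0.16), transformed with voom and tested with limma 3.58.1 in R 4.3.3. The study's methods name limma-voom, TMM and an FDR below 0.01. The fit had genotype as its only term, all 10 arches and Benjamini-Hochberg adjustment over all genes tested. Single genes were also tested by the exact permutation test over all 252 assignments of arches. CPM were computed with TMM-scaled library sizes, with 0.5 added for log2 values, and per kb with the union exon length of GENCODE M21. Alternatives were the edgeR quasi-likelihood test, DESeq2 1.42.0, other size factors and filters, sample quality weights, the label number as a block, an FDR of 0.05 and each arch left out. On simulated counts with 200 genes changed 2-fold among 14293 tested, limma recovered 100% with 2 false calls. The simulation gave every gene the same relative spread, changed only well-counted genes and held no differences in cell content between arches. It therefore did not probe smaller differences, such as those of Igfbp5 and Igf2r.

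The 10 genes and the lists of related genes and markers were chosen with earlier results of these data known. All 10 are named with every value, and of the other lists the called genes, or otherwise the 3 of lowest FDR. Grb7, Stc1, Insr, Ins1, Ins2, Dlk1 and Rtl1 fall outside this rule and were named after their values were seen, and 1 gene that the rule names is not reported here. Nothing in the labels says that the arches of a genotype came from separate litters, so p-values measure the spread between these embryos. No 2 libraries of a genotype agreed within sampling noise (chi-square per gene 7.29 to 26.4).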

Additional observations from a re-analysis of the deposited data

Results flagged for a closer look

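In 42 sets of 5 arches, each a gene, a summed marker list or the total reads in 1 genotype, 4 had a highest or lowest arch set far from the other four for the range of the set, where chance gives about 2.1. For Igf2r the wild-type arch 1-568, at 551.1 CPM against 482.2 in the next arch, gave a gap of 0.778 of the range. For Igfbp3 the wild-type arch 1-566, at 67.7 against 58.6 CPM, gave 0.751. For Igfbp4 the Grhl2-/- arch 2-566 was lowest, at 534.0 against 582.2 CPM, with 0.826 of the range. For the summed mesoderm and muscle markers the wild-type arch 3-588 was highest, at 64.0 against 53.0 CPM, with 0.763. The wild-type arches 1-568 and 1-566 are those low in sensory neuron transcripts, and without either of them the log2 fold changes of Igf2r and Igfbp3 kept their sign.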

How the results depend on the processing

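For the 10 genes, Pappa and Cdkn1a, 209 of the values under an alternative kept their direction and their side of the threshold, 37 kept their direction but lost the call, 0 gained one and 6 changed sign. Igfbp3 was called in all 10 fits with an arch left out and in all 8 fits with another tool, scaling, filter, weight or block. Igfbp5 was lost with median-of-ratios size factors (FDR 0.0101) and with no filter on low counts (FDR 0.0111), and Igf2r with no filter (FDR 0.0107), where more genes were tested. The count of the 10 genes called higher was 3, and it was 1 with no filter on low counts, 1 without both arches low in sensory neuron transcripts, and 1 to 2 with each arch left out. For the other lists the count called higher was 2, and it was 7 with DESeq2, 7 at an FDR below 0.05, 1 with the sensory neuron covariate, 0 without both low arches and 1 to 4 with each arch left out. Their count called lower was 0, and it was 3 with DESeq2 and 2 at an FDR below 0.05. Signs changed in genes near 0: with each arch left out, Igf2 ran from -0.0202 to 0.0479 and Igfbp4 from -0.0109 to 0.0504. The cause was not tested. Over all genes, calls were 128 higher and 158 lower, against 520 and 553 with DESeq2, 19 and 90 without both low arches, and 42 to 143 and 110 to 249 with each arch left out. The fits without both low arches and with the covariate were chosen after seeing the data. Library size alone moved the median of all genes to 0.03.

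Label numbers were shared between genotypes, and arches with the same number deviated together in some pairs only. Over 5 same-numbered pairs the correlations ran from -0.37 to 0.55 (mean 0.09), with 2 of them over 0.1. The mean over 20 different-numbered pairs was -0.02, and 1 wild-type arch correlated best with its own number. With the label number as a replicate block, 2 of the 10 genes and 1 gene of the other lists were called higher, Igf2r was not called (log2 fold change 0.31, FDR 0.0226), Igf1 had a log2 fold change of -0.43 and an FDR of 0.01995, Igfbp4 changed sign to -0.0011, Cdkn1a had an FDR of 0.0515, and over all genes 60 were higher and 69 lower. Within the numbers 566, 568 and 588, which hold both genotypes, the log2 differences of Igfbp3 were 0.88, 0.97 and 0.67, of Igfbp5 0.49, 0.62 and 0.47, of Igf2r 0.33, 0.36 and 0.20, and of Igf1 -0.46, -0.38 and -0.47.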
